A study of Sus scrofa with 30 samples.

Results

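H3K4me3, the trimethylation of histone H3 at lysine 4, was compared between pig 4-cell and 8-cell embryos. The comparison used 4 libraries of the 30 in the series, namely 2 untreated H3K4me3 4-cell libraries and 2 H3K4me3 8-cell libraries, chosen by their labels and not by any measured value. All embryos came from fertilisation in vitro, and the oocyte and embryo libraries were made by native chromatin immunoprecipitation from very few cells (ULI-NChIP-seq). The other H3K4me3 groups, each of 2 libraries, were germinal vesicle (GV) and metaphase II (MII) oocytes, 1-cell and 2-cell embryos, morulae and blastocysts. A further group of 2 was siKDM5BC, which were 4-cell embryos from zygotes injected with siRNA to KDM5B and KDM5C, which are enzymes that demethylate H3K4. H3K27me3, the mark of Polycomb repression, was profiled at 6 stages. The labels name no breed, sex, embryo number per library or control siRNA, and do not say whether the replicates were separate collections, so every p-value here refers to library spread alone, which may be technical.

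H3K4me3 is written by the SET1 and MLL methyltransferases and removed by the KDM5 demethylases. In most cells it forms sharp peaks over promoters rich in CpG, whereas mammalian oocytes also carry it in wide domains away from promoters, much of which is removed in the early embryo. In the pig, the main wave of transcription from the embryo's own genome begins around the 4-cell and 8-cell stages, so the interval spans the switch from maternal to embryonic control.

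The authors' lists gave 57092 and 36713 peaks on chromosomes 1 to 18 for the 4-cell replicates 1 and 2, and 67445 and 79529 peaks for the 8-cell replicates. The lists hold no read totals. The background recovered from each list, a guide to depth, was 1.25 and 1.12 reads per position at 4 cells and 1.07 and 1.10 at 8 cells. The lowest −log10 q admitted to a list was 1.49 and 1.51 at 4 cells but 1.08 and 1.12 at 8 cells, so the 8-cell lists reach weaker peaks. That difference moves with the groups, and values with every list held to a common limit are given beside the main results. The 4-cell replicate 2 list was the smallest, and leaving out either 4-cell library shifted many of the values below.

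The share of H3K4me3 lying away from genes was higher at 8 cells than at 4 cells in the lists as deposited. Distal length, covered sequence more than 5 kb from both ends of every protein-coding gene, was 26.3 and 12.4 Mb in the 4-cell libraries and 38.3 and 50.1 Mb in the 8-cell libraries. Both 8-cell libraries lay above both 4-cell libraries, 2.42-fold on average of the log2 lengths. With every list held to the common lowest −log10 q of 1.51 the distal lengths were 23.6 and 12.4 Mb against 22.5 and 32.4 Mb, which overlap, and at a fold enrichment of 3.5 or more they were 13.3 and 8.24 Mb against 12.9 and 17.6 Mb, which also overlap. Proximal length, within 5 kb of a gene end, was 29.1 and 18.6 Mb at 4 cells and 25.9 and 29.3 Mb at 8 cells, and these values overlapped. The log2 difference was 1.28 for distal length, or 2.88 times the replicate SD pooled over 9 groups with H3K4me3 data, and 0.246 for proximal length, or 0.772 times its pooled SD.

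The distal share of covered length was 47.5% and 40.1% in the 4-cell libraries and 59.6% and 63.1% in the 8-cell libraries. The means were 43.8% ± 5.23 (SD, n = 2) and 61.4% ± 2.49 (SD, n = 2), so the difference of 17.6 percentage points was 7.08 times the pooled SD. With 2 libraries against 2, the two-sided exact permutation test gave p = 0.333, the smallest value it can reach. The 2-cell libraries stood at 62.6% and 61.2%, and the morula libraries at 63.6% and 66.0%. In the full lists the 4-cell libraries had the lowest distal shares of the 16 stage libraries, and the 8-cell libraries were close to the 2-cell ones. At the common lowest −log10 q the 8-cell libraries (49.2% and 55.3%) lay below both 2-cell libraries (57.5% and 57.7%), and 1-cell replicate 1 stood at 40.9%, below 4-cell replicate 1 (45.3%). Peaks of 5 kb or wider held 4.02% and 1.80% of covered length at 4 cells and 4.54% and 5.14% at 8 cells, a difference of 1.93 points. The 2 groups did not overlap, but the difference was smaller than the replicate SD pooled over the 9 groups (0.657 times it). It was 3.62 points at the common lowest −log10 q, 4.37 points at −log10 q of 3 or more, 4.40 points by fold enrichment and 4.59 points in the strongest 25 Mb of each list, and 0.823 points without 4-cell replicate 2.

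**Figure D1:**
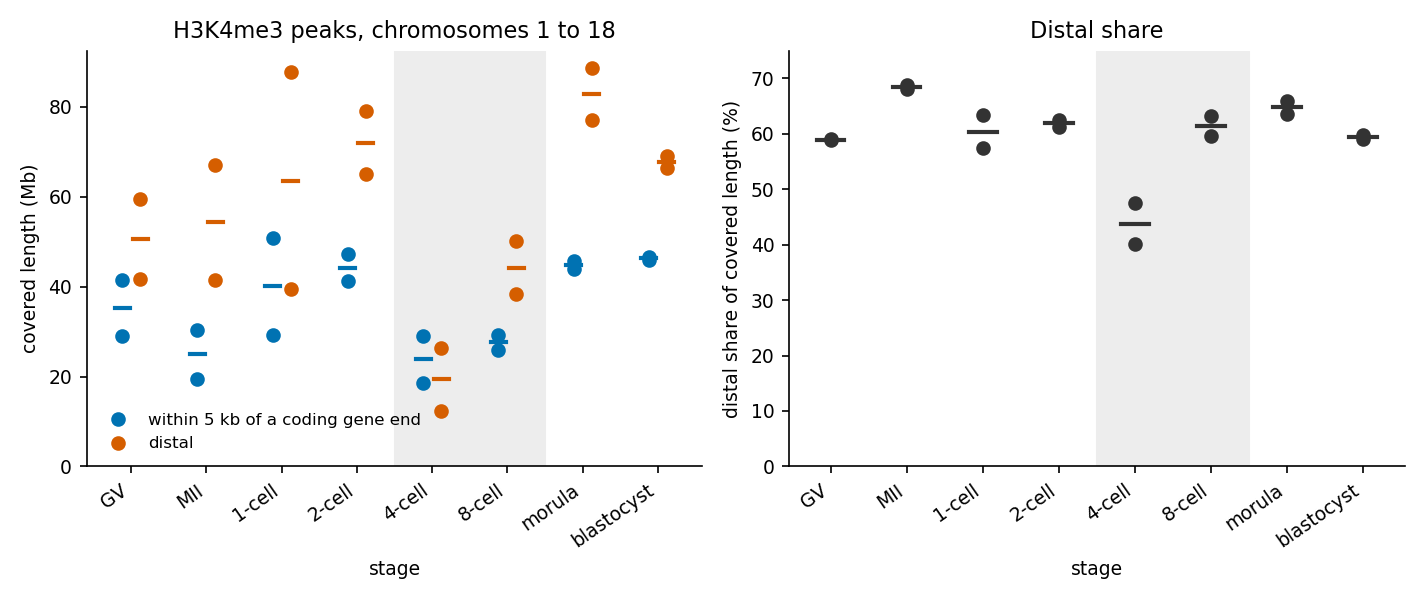
Covered length in Mb (left, proximal in blue and distal in orange) and the distal share in percent (right) for each H3K4me3 library at 8 stages, with points for the 2 libraries and short lines for their mean, and the 4-cell and 8-cell stages shaded. Distal length was 26.3 and 12.4 Mb at 4 cells and 38.3 and 50.1 Mb at 8 cells, while proximal length overlapped.

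The difference in distal share lay in the weak peaks. Among peaks with −log10 q from 1.51 to 2, the distal share was 78.8% and 70.9% at 4 cells and 82.5% and 83.4% at 8 cells, with distal lengths of 8.68 and 6.13 Mb against 10.02 and 13.07 Mb. Among peaks with −log10 q from 5 to 10, it was 16.07% and 15.96% at 4 cells and 11.5% and 14.5% at 8 cells, so that both 8-cell libraries lay below both 4-cell libraries. With every list held to the common limit, the difference was 9.56 points, with 45.3% and 40.1% against 49.2% and 55.3%. At a −log10 q of at least 3 it was 1.97 points and the groups overlapped. When each list was limited to its strongest 25 Mb the sign turned, to -3.43 points, with 21.2% and 32.1% at 4 cells and 24.2% and 22.2% at 8 cells. That limit kept 80.6% of the 4-cell replicate 2 list but 45.1%, 38.9% and 31.5% of the other 3, so it took in most of the former, and 4-cell replicate 1 lay below both 8-cell libraries. The sign there rests on 4-cell replicate 2. The difference was largest in the full lists and smaller under each of the peak thresholds.

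**Figure D2:**
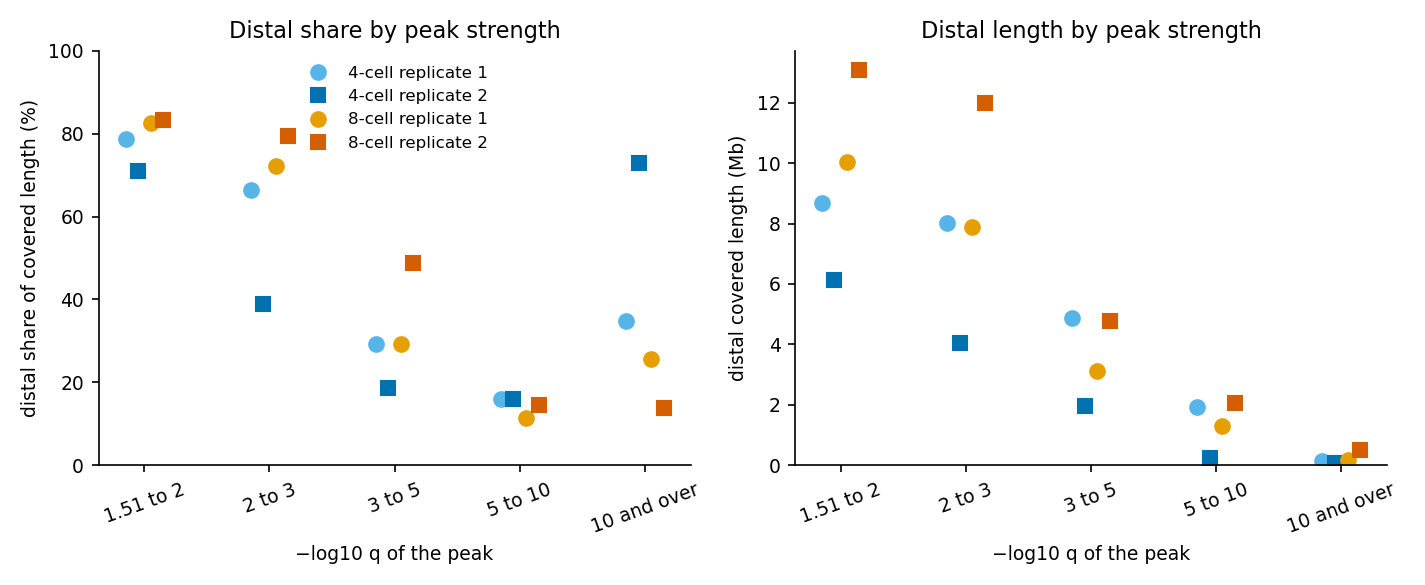
Distal share of covered length in percent (left) and distal covered length in Mb (right) by −log10 q class of the peak, for the 2 libraries at 4 cells (blue) and the 2 at 8 cells (orange and red). The distal share is highest among the weakest peaks in all 4 libraries except 4-cell replicate 2, whose class of 10 and over holds only 43 peaks. Both libraries at 8 cells lie above both at 4 cells in distal share in the 3 classes below 5. In distal length they do so only in the lowest class and in the small class of 10 and over (0.157 and 0.075 Mb against 0.168 and 0.511 Mb).

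Peaks of the 4 libraries were joined where they met, giving 135921 regions. A region was gained when both 8-cell libraries and neither 4-cell library had a peak in it, and lost in the opposite case. There were 14468 gained regions, 10.6% of all joined regions, and 2951 lost regions, 2.17%. A further 18006 regions were kept, with peaks in all 4 libraries. At the common lowest −log10 q the counts were 6086 gained and 4406 lost, at a fold enrichment of 3.5 or more they were 2842 and 2829, and at −log10 q of 3 or more they were 1191 and 878. Within the strongest 25 Mb of each list they were 830 and 2083, a limit that keeps a larger part of the 4-cell replicate 2 list than of the 8-cell lists. The excess of gains over losses was largest in the lists as deposited.

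Gained, lost and kept regions lay in different parts of the genome. Of the gained regions, 12705 (87.8%) were distal and 45.8% were more than 50 kb from any coding gene end. Of the lost regions, 70.0% were distal and 23.3% were more than 50 kb away, and of the kept regions 28.8% were distal and 61.3% were within 1 kb of an end. Gained distal regions lay inside a coding gene in 40.1% of cases, against 49.95% of lost and 47.9% of kept distal regions. Their median width was 1247 bp, against 872.5 bp for lost and 1787.5 bp for kept distal regions. The authors' fold enrichment had a median of 3.24 and 3.27 in the gained distal peaks of the 8-cell libraries, and 3.70 and 3.93 in the kept distal peaks of the same libraries. A −log10 q of 3 or more was reached by 5.53% and 9.30% of the gained distal peaks.

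The distal regions gained at 8 cells were seldom those of the 2-cell embryo. Both 2-cell libraries had a peak in 5.74% of them and neither had one in 84.1%, while both 2-cell libraries had a peak in 57.4% of the lost and 74.9% of the kept distal regions. Over all 103332 distal regions the share was 16.8%. It was 4.34% in the narrower distal regions with a peak in 1 8-cell library only and in no 4-cell library. A low 2-cell share was thus not particular to the gained regions. Later stages gave another order. Both morula libraries had a peak in 41.8% of the gained, 17.5% of the lost and 76.9% of the kept distal regions. Both blastocyst libraries had one in 35.4%, 19.8% and 76.7%. Over all distal regions the shares were 21.5% in morulae and 19.7% in blastocysts. Both GV oocyte libraries had a peak in 3.49% of the gained and 47.6% of the lost distal regions, beside 13.7% of all distal regions. The share was 3.58% in those with a peak in 1 8-cell library only. These shares are descriptions, with no test.

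The same order was found among regions called from stronger peaks, at other levels. A region gained under a stricter limit can still hold a weaker 4-cell peak, and a lost one a weaker 8-cell peak. At the common lowest −log10 q the 2-cell share was 6.68% of gained and 61.5% of lost distal regions, and the morula share was 57.8% and 22.8%. With −log10 q of 3 or more, 709 gained and 369 lost distal regions were called anew on the shorter lists, of which 25.8% and 87.5% had peaks in both 2-cell libraries and 92.8% and 72.4% in both morula libraries. Distal regions with a peak in 1 8-cell library only, and in no 4-cell library, were covered in both morula libraries in 13.1% of cases. That was well under the 41.8% of the gained ones. Their median width was 406 bp against 1247 bp, and a wider region is more likely to meet a peak, so the 2 shares are not like for like.

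Embryos with siRNA against KDM5B and KDM5C, also at 4 cells, did not hold most of the regions that came up at 8 cells. Their 2 libraries covered 173.9 and 159.4 Mb, far more than the 8-cell libraries at 64.3 and 79.4 Mb. Even so, both siKDM5BC libraries had a peak in 6.95% of the gained distal regions and neither in 85.7%. Both had one in 84.3% of the lost and 84.8% of the kept distal regions, beside 26.9% of all distal regions. In distal regions with a peak in 1 8-cell library only the share was 9.22%, so the low share was not particular to the gained regions. The call rule itself required no peak in untreated 4-cell libraries for gained regions and a peak in both for lost ones. Among the regions called at −log10 q of 3 or more the shares were 36.4% of the gained and 97.8% of the lost. H3K27me3 gave an order that varied with the stage. Both H3K27me3 4-cell libraries had a peak in 14.3% of the gained, 1.36% of the lost and 8.64% of the kept distal regions, beside 5.72% of all distal regions, and both H3K27me3 8-cell libraries in 12.5%, 0.242% and 7.16%, beside 3.87%. In MII oocytes the gained regions were the lowest, with 6.94% against 37.3% of the lost and 26.7% of the kept, beside 13.3% of all. In blastocysts the shares were 27.6%, 17.4% and 29.4%, beside 14.7% of all.

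**Figure D3:**
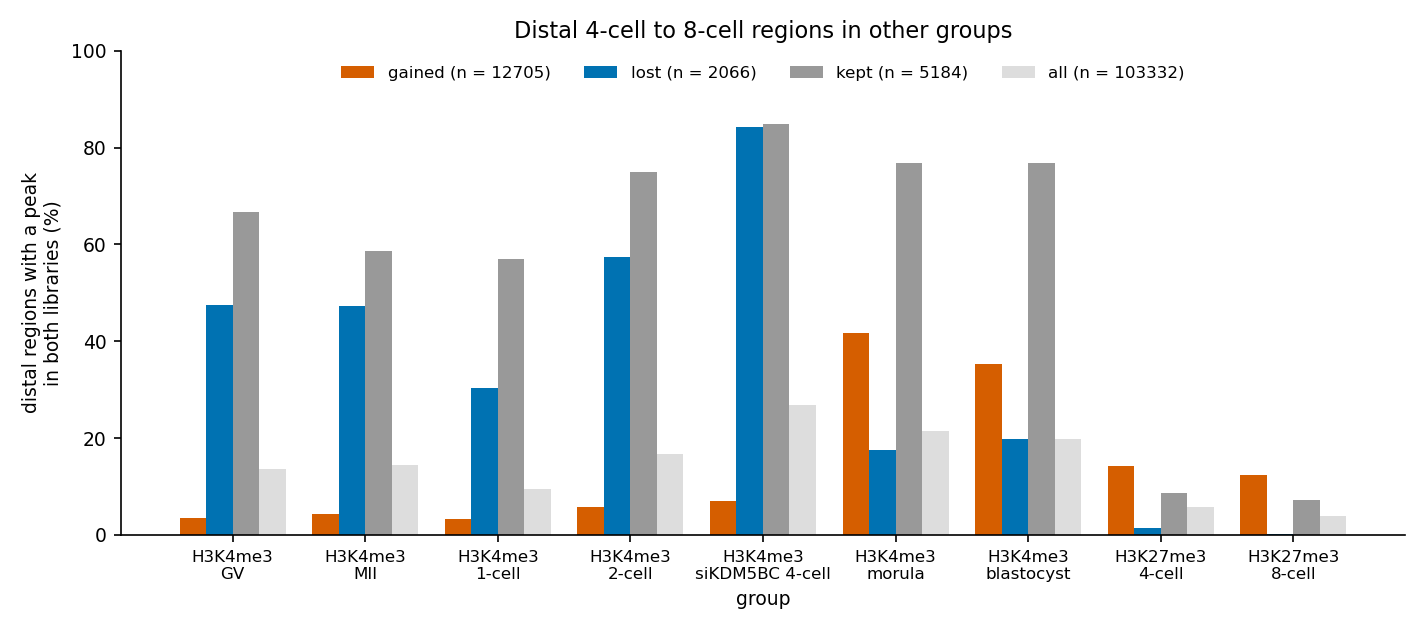
Percent of distal regions with a peak in both libraries of each other group, for 12705 gained, 2066 lost, 5184 kept and all 103332 distal regions of the 4-cell and 8-cell lists. Gained regions are low in oocytes, 2-cell and siKDM5BC embryos and higher in morulae (41.8%) and blastocysts (35.4%), while lost regions show the reverse order.

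The single regions with the most shared 8-cell sequence show 2 kinds of course. Coordinates are those of susScr11, and no strand or sequence was used. Region chr7:47209198-47218973, between genes and 120 kb from the nearest coding gene end, that of the acetylcholine receptor subunit gene CHRNB4, had 0 bp in both 4-cell libraries and 5791 and 8962 bp at 8 cells. It had 0 bp in every other H3K4me3 stage library and in both siKDM5BC libraries. Region chr9:117533936-117540204, inside TNR (tenascin-R) and 168 kb from its nearer end, had 0 and 0 bp at 4 cells, 6269 and 5722 bp at 8 cells, and 940 bp at most in any morula or blastocyst library. Region chr2:81953850-81959415, 21.4 kb from the histamine receptor gene HRH2, went from 0 and 0 bp to 5566 and 5142 bp. These 3 regions were wide at 8 cells and had little or no H3K4me3 peak in the later stages, apart from 2546 bp near HRH2 in morula replicate 2. In TNR, H3K27me3 peaks covered 2854 and 4593 bp at 4 cells and 2763 and 6209 bp at 8 cells. Near HRH2 they covered 1314 and 1224 bp at 4 cells and 1553 and 4251 bp at 8 cells. The region near CHRNB4 had no H3K27me3 peak at 4 cells and 262 bp in 8-cell replicate 1.

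Other gained regions stayed covered. Region chr11:9329403-9335471, 91.8 kb from KL (klotho), had 6051 and 4805 bp at 8 cells, 5599 and 6069 bp in morulae and 4842 and 4252 bp in blastocysts, with 0 bp in all 2-cell and 4-cell libraries. Region chr2:57108339-57115441, 10.5 kb from the zinc finger gene ZNF496, had 4996 and 7084 bp at 8 cells and 6901 and 6414 bp in morulae.

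Lost regions were narrower, and several had coverage in oocytes. Region chr1:273135192-273139606, inside ADAMTSL2, which codes for a matrix glycoprotein, had 4349 and 2821 bp at 4 cells and 0 bp at 8 cells. It was covered in every oocyte, 1-cell and 2-cell library, by 914 to 4415 bp, fully covered at 4415 bp in both siKDM5BC libraries, and at 0 bp in all morula and blastocyst libraries. Region chr10:68434245-68438229, inside WDR37, had 3259 and 2777 bp at 4 cells, 3985 bp in both siKDM5BC libraries and 0 bp from the 8-cell stage to the blastocyst. Region chr18:1080205-1082925, inside the phosphatase gene PTPRN2, had 1883 and 2487 bp at 4 cells, was covered over its whole width in both siKDM5BC libraries, and had 0 bp from the 8-cell stage on. Region chr5:4179635-4182422, near the nucleoporin gene NUP50, had 2737 and 2290 bp at 4 cells and 0 bp at 8 cells, and was covered again in morulae by 839 and 660 bp.

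At gene ends the mark was mostly kept. A gene counted as marked if any peak lay within 1 kb of one of its ends, and 14074 and 12795 of 18722 coding genes were marked in the 4-cell libraries against 13330 and 13855 in the 8-cell libraries. Of 12531 genes marked in both 4-cell libraries, 11840 (94.5%) were marked in both 8-cell libraries. Genes gaining the mark, with both 8-cell libraries and neither 4-cell library marked, numbered 241, 1.29% of all coding genes. Genes losing it numbered 238, 1.27%. The balance between the counts followed the peaks admitted: it was 120 gained and 436 lost at the common lowest −log10 q, 114 and 495 at a fold enrichment of 3.5 or more, and 423 and 295 at −log10 q of 3 or more.

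The width of H3K4me3 at each gene was tested with limma on the base pairs covered within 5 kb of 1 gene end, the end with the larger mean over the 16 stage libraries, in a fit over the 16 stage libraries and 17451 genes with Benjamini-Hochberg adjustment. At an adjusted p of 0.05, 349 genes (2.0%) had wider coverage at 8 cells and 10 genes (0.0573%) had narrower coverage. Lengths within 5 kb in the paragraphs on genes are of that end alone, and the other end can carry a peak. At an unadjusted p of 0.05 the counts were 1607 and 187. The spread in this fit came from all 8 stages: with the 4 libraries alone limma called 0 and 0 (1866 and 552 at an unadjusted p of 0.05), so none of the calls below stood without the other stages. A gene at or near 0 bp in many stages, such as SERPINC1, KLRF1 or CYP11A1 below, has a small pooled spread. The small adjusted p-values at such genes do not measure the spread within the 4-cell and 8-cell groups. The 16 libraries used to choose the end and to filter genes include the 4 compared. At such genes the end tested was thus chosen partly on the values tested. SPARC, at 0 bp in all other stage libraries at that end, entered the fit through the compared libraries alone. The adjusted p-values do not allow for that choice. The 349 genes had a median of 672.5 bp at 4 cells and 4152 bp at 8 cells, and both 8-cell libraries lay above both 4-cell libraries in all of them. Of the 349, 184 were among the 11840 kept genes and 47 among the 241 gained genes, while none of the 238 lost genes passed in either direction (3 higher and 23 lower at an unadjusted p of 0.05). Another coding gene's end lay in the window of 118 of the 349 and of 8 of the 10, so a window can hold a neighbour's promoter. The count of wider genes was 114 without 4-cell replicate 1, 77 without 4-cell replicate 2, 144 without 8-cell replicate 2 and 96 at the common lowest −log10 q, so its size depends on single libraries and on the peaks admitted.

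Some of the largest limma differences lay at genes of metabolism, transport and protein folding. GLDC, which codes for the glycine decarboxylase of the mitochondrial glycine cleavage system, had 808 and 512 bp covered at 4 cells and 8174 and 7094 bp at 8 cells. Coverage stayed wide, with 9716 and 10001 bp in morulae and 8781 and 9154 bp in blastocysts, and was 1256 and 1240 bp in siKDM5BC embryos. The 8-cell minus 4-cell difference was 6974 bp (SE 721, limma adjusted p = 0.000336). NICN1 rose from 983 and 1382 bp to 7981 and 7075 bp, by 6345.5 bp (SE 610, limma adjusted p = 0.000199). KPNA6, an importin alpha that carries proteins into the nucleus, rose from 2000 and 2791 bp to 8909 and 8387 bp. DNAJB12, a chaperone partner of the endoplasmic reticulum, rose from 1253 and 961 bp to 6853 and 7682 bp. CLDN8, a tight junction claudin, rose from 566 and 900 bp to 7147 and 6239 bp. Coverage in both 8-cell libraries was several times that of either 4-cell library at all 5 genes, which were named for their large differences.

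SERPINC1, which codes for antithrombin, had 0 bp in both 4-cell libraries within 5 kb of the end used (129 bp within 1 kb of an end in 4-cell replicate 1) and 5970 and 5955 bp at 8 cells. The difference of 5962.5 bp had an SE of 324 and a limma adjusted p of 2.06e-06. This stretch is the gained region chr9:116178575-116184544, which also overlaps an end of the zinc finger gene ZBTB37, so the 2 genes cannot be separated. It had 0 bp in every oocyte and 2-cell library, 2761 and 3391 bp in morulae and 236 and 467 bp in blastocysts. FAM151A, ZFP37, ANXA9 and CCDC60 also rose, by 5952 to 7402.5 bp. At ZFP37 the 4-cell libraries differed, with 0 and 4075 bp against 8725 and 8321 bp at 8 cells, and its adjusted p of 0.0186 was lost when 4-cell replicate 1 or either 8-cell library was left out.

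The genes that gained the mark with the largest gap between the groups had varied functions. THEG, a gene of spermatids, had 0 bp within 5 kb of its end in both 4-cell libraries and 5630 and 5756 bp at 8 cells, with 4095 and 2996 bp in morulae and 3576 and 2536 bp in blastocysts. KLRF1, a receptor of natural killer cells, had 0 bp at 4 cells and 2775 and 3102 bp at 8 cells, with 388 bp at most elsewhere. FABP1, the liver fatty acid-binding protein, had 570 and 0 bp at 4 cells and 5369 and 6718 bp at 8 cells. LRRC8C, a subunit of volume-regulated anion channels, had 877 and 977 bp at 4 cells and 6733 and 6312 bp at 8 cells, then 403 and 1485 bp in morulae. The groups were apart at these 4 genes because they were named for the gap, so that is no further support. Their limma adjusted p-values ran from 9.06e-06 at KLRF1 to 0.00118 at FABP1. At KLRF1 the SE was 189 bp, in a fit where most other stages had 0 bp. KLRF1 and LRRC8C were wide at 8 cells and narrow before and after.

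PRAME, a cancer-testis antigen gene, had 0 and 818 bp at 4 cells and 5403 and 4345 bp at 8 cells (limma adjusted p = 0.0049). HTR3B, a serotonin receptor subunit, had 0 and 511 bp against 3609 and 5599 bp, and FOLR1, a folate receptor (1 of 2 neighbouring gene entries of that symbol, with overlapping windows), 433 and 0 bp against 3723 and 2927 bp. SLC28A3, a nucleoside transporter, had 0 bp in both 4-cell libraries and 2904 and 3070 bp at 8 cells. These 4 passed the limma test in the full lists, but PRAME not without 4-cell replicate 1, FOLR1 not without either 4-cell library, and SLC28A3 not without any 1 of the 4 libraries. CTNND1, the adherens junction protein p120-catenin, had 0 and 0 bp against 3440 and 4753 bp but did not pass (limma adjusted p = 0.0759). KLB, the co-receptor beta-klotho, shares its window with RPL9, so its 1059 and 266 bp against 4202 and 3940 bp belong to either gene.

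In the full lists many gained genes were not marked in neighbouring stages. Both 2-cell libraries were marked at 24.1% of the 241 gained genes, against 80.7% of the 238 lost genes and 72.1% of all coding genes. Both morula libraries were marked at 46.5% of the gained and 53.4% of the lost genes, an order that turned to 63.3% and 51.4% at the common lowest −log10 q, 81.6% and 67.7% by fold enrichment and 98.8% and 84.7% at −log10 q of 3 or more. Of the gained genes, 93 were marked in both morula and both blastocyst libraries, and 87 in none of those 4. Both siKDM5BC libraries were marked at 29.5% of the gained and 94.1% of the lost genes. Over all coding genes, both morula libraries were marked at 72.9% and both siKDM5BC libraries at 78.1%. Gained genes were unmarked at 4 cells by the call rule, so all coding genes are not a like base. Of the 3553 genes unmarked in every 4-cell and 8-cell library, 12.02% were marked in both 2-cell libraries. The shares of these genes were 9.63% in morulae and 14.4% in siKDM5BC embryos. Each was lower than the share of the gained genes, but these genes also lacked the mark at 8 cells. Each limit calls its own genes, since 108 of the 120 gained at the common limit but 44 of the 114 by fold enrichment and 19 of the 423 at −log10 q of 3 or more were among the 241. Of the gained genes called by these 3 limits, 28.3%, 47.4% and 81.1% were marked in both 2-cell libraries and 41.7%, 65.8% and 95.5% in both siKDM5BC libraries. H3K27me3 was present in both 4-cell libraries at 18.3% of the gained genes, 2.10% of the lost genes and 2.55% of all coding genes, and at 12.5%, 10.5% and 1.42% of the gained genes called by the 3 limits. In both 8-cell libraries it was at 13.3%, 0.420% and 0.828%, and at 10.8%, 7.89% and 0.473% by the 3 limits. Named genes with it in both libraries of both stages included THEG, ESRRB, NOBOX and CYP11A1. FABP1 had it in both 4-cell libraries only, and GLDC, NICN1, SERPINC1 and KLRF1 at neither stage.

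Some genes that lost the mark at an end kept coverage further out, since 5 kb windows reach beyond the 1 kb used for the call. PRR35 had 7664 and 5882 bp within 5 kb at 4 cells, 2634 and 2814 bp at 8 cells and 10001 and 8960 bp in siKDM5BC embryos. MROH6 had 7400 and 5641 bp against 2729 and 2549 bp, and TSHZ3, a teashirt zinc finger factor, had 4723 and 4691 bp against 2398 and 2308 bp. The 4-cell libraries were above the 8-cell libraries in these 3 genes, which were named for that gap. No lost gene passed the limma test (adjusted p = 0.174 at MROH6). The first 12 lost genes by size also included ADPRHL1, FAAP20, PHEROC, PSCA, TNNT3, ZC3HAV1 and ZNF469.

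The 10 genes that did narrow included sets that share a window. RAC3, a small GTPase of the cytoskeleton, had 5925 and 5831 bp at 4 cells and 752 and 2215 bp at 8 cells, and fell by 4394.5 bp (SE 748, limma adjusted p = 0.0106). SRMS, a Src-related kinase, shares much of its window with FNDC11 and fell from 7202 and 6184 bp to 1380 and 2464 bp, and it was covered across the whole window (10001 bp) in both siKDM5BC libraries. DBN1, the actin-binding drebrin, shares its window with PRR7 and GRK6 and fell from 5122 and 5398 bp to 1893 and 2006 bp. TGM1, a transglutaminase of the skin, CHRNB2, an acetylcholine receptor subunit, EDIL3 and the efflux pump gene ABCC1 made up the other windows. RAC3 and DBN1 were wider again in morulae (3286 and 3257 bp at RAC3), whereas SRMS had 0 and 1310 bp there. No gene was called narrower without 4-cell replicate 1, 2 were without 8-cell replicate 1, 1 without 8-cell replicate 2 and 13 without 4-cell replicate 2.

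**Figure D4:**
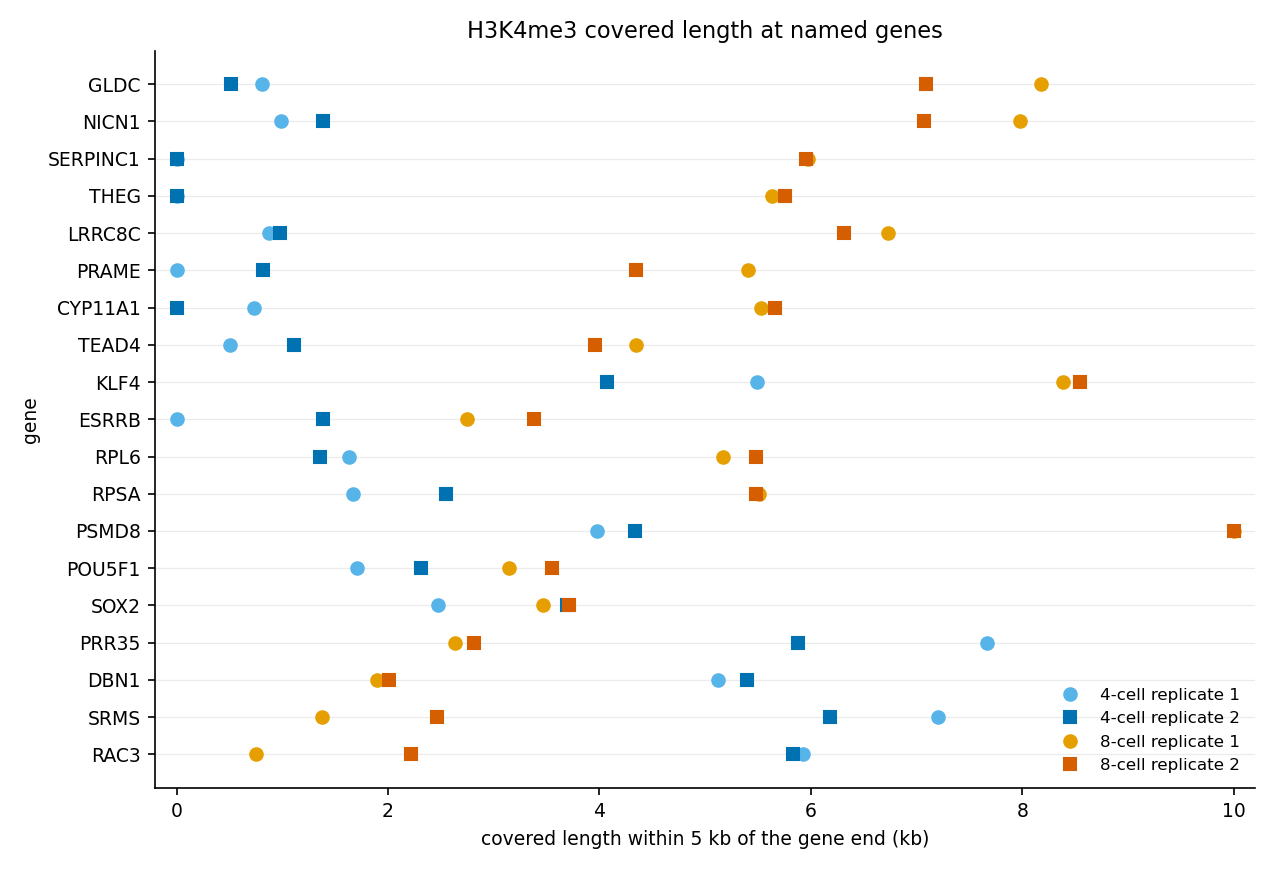
Covered length in kb within 5 kb of the gene end at named genes, for the 2 libraries at 4 cells (blue) and the 2 at 8 cells (orange and red). The 8-cell points lie to the right at the genes from GLDC to POU5F1, touch the 4-cell points at SOX2, and lie to the left at the genes from PRR35 to RAC3.

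Housekeeping genes mostly had wider H3K4me3 at 8 cells than at 4 cells. Over all 18722 coding genes the median difference was 31 bp, with 9679 genes above 0 and 6898 below, and both 8-cell libraries were above both 4-cell libraries at 26.5% and below at 12.9%. Of the 81 ribosomal protein genes, 77 were above 0 and 3 below, with a median difference of 1722 bp, and the groups were apart upward at 65 and downward at none. The median ribosomal protein gene had 2635 and 1676 bp at 4 cells and 3640 and 3962 bp at 8 cells. Limma called 8 of the 81 wider and none narrower: RPL6, RPL9, RPL18, RPL21, RPL37, RPLP0, RPS24 and RPSA. RPL6 rose from 1634 and 1353 bp to 5165 and 5486 bp (limma adjusted p = 0.0162), and had 6585 and 6386 bp in morulae. RPSA rose from 1668 and 2550 bp to 5510 and 5480 bp (limma adjusted p = 0.0111). Leaving out each library in turn gave median differences of 1411.5 to 1920 bp for the list. The single calls were less stable: those at RPL6, RPL9, RPL18, RPL21 and RPS24 were lost without any 1 of the 4 libraries, and the other 3 without 2 or more of them (RPSA without 4-cell replicate 1 or 8-cell replicate 2).

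Other lists of basic cell functions stood on the same side. Translation initiation factors had 25 of 29 genes above 0 and a median difference of 1105 bp, with EIF4A2, an RNA helicase of the cap-binding complex, the 1 gene called wider (3196 and 1830 bp against 6812 and 6197 bp). Subunits and assembly factors of respiratory complex I had 33 of 35 above 0, with a median of 725.5 bp and NDUFA13 called wider. Proteasome genes had 36 of 47 above 0, with PSMA5 and PSMD8 called wider. PSMD8 went from 3979 and 4336 bp to the full window of 10001 bp in both 8-cell libraries. Splicing factors had 30 of 36 above 0, with SNRPA called wider, and RNA polymerase II and Mediator genes 36 of 43, with none called by limma (6 higher and 0 lower at an unadjusted p of 0.05). The medians of these 5 lists were above 0 with every peak threshold tried and without each of the 4 libraries, whereas the calls at EIF4A2, NDUFA13, PSMA5, PSMD8 and SNRPA were lost without any 1 library.

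Developmental regulators lay on the other side, without any single call. Of 36 HOX cluster genes, 3 were above 0 and 33 below, with a median difference of -1348 bp, and of 133 other developmental transcription factors, 18 were above and 114 below, with a median of -998.5 bp. The median HOX gene had 5156 and 2856 bp at 4 cells and 2312 and 2749.5 bp at 8 cells. The median developmental transcription factor had 4507 and 3155 bp at 4 cells and 2508 and 2906 bp at 8 cells, so 4-cell replicate 1 stood farthest out in both lists. Limma called 0 of the 36 and 0 of the 133 in either direction, and at an unadjusted p of 0.05 it had 1 and 6 lower and 0 higher in either list. Both medians were below 0 at every peak threshold tried. HOX genes lie next to each other and share windows, so the 36 are not separate measurements. Without 4-cell replicate 1 the medians were -228 and -312.5 bp, below 0 but far smaller, while all coding genes had a median of 269.8 bp in that setting. Signalling ligands had 13 of 61 above 0 and 45 below, with a median of -495 bp, which was 0 without 4-cell replicate 1.

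**Figure D5:**
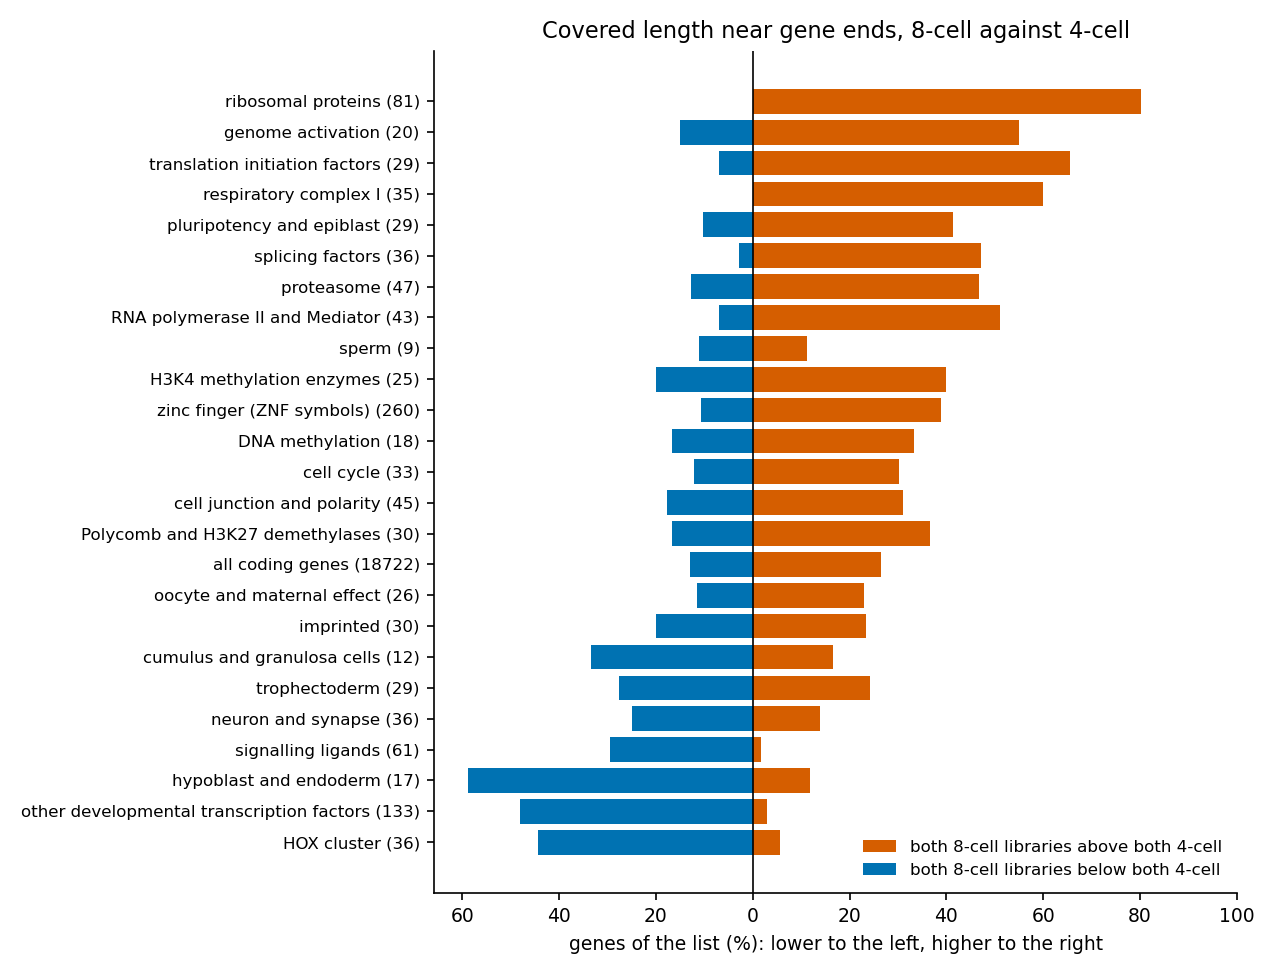
Percent of genes in each list whose 2 libraries at 8 cells both lay above (orange, to the right) or both below (blue, to the left) the 2 at 4 cells in covered length within 5 kb of the gene end, ordered by the median difference, with the number of genes in parentheses. Ribosomal protein genes were apart upward in 65 of 81 and HOX genes downward in 16 of 36, beside 26.5% upward and 12.9% downward over all coding genes.

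Genes of early lineages and of genome activation were mixed. The genome activation list had 15 of 20 genes above 0, with a median difference of 1248 bp, and KLF4 and DUXA were called wider. DUXA, a homeobox gene active at genome activation, rose from 2432 and 2301 bp to 5589 and 5185 bp (limma adjusted p = 0.0408) and had 5202 and 4977 bp in morulae. Among pluripotency and epiblast genes, 20 of 29 were above 0 and 7 below. KLF4, a pluripotency factor, rose from 5487 and 4073 bp to 8383 and 8543 bp (limma adjusted p = 0.0419). ESRRB, an orphan nuclear receptor of pluripotent cells, rose from 0 and 1383 bp to 2744 and 3385 bp (limma adjusted p = 0.0288), and the end used was at 0 bp in all 2-cell, morula and blastocyst libraries. The calls at KLF4 and DUXA were lost without any 1 of the 4 libraries, and that at ESRRB without 4-cell replicate 1 or 8-cell replicate 2.

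The core pluripotency factors did not pass. POU5F1 had 1704 and 2311 bp at 4 cells and 3142 and 3549 bp at 8 cells (limma adjusted p = 0.739), and SOX2 had 2469 and 3692 bp against 3466 and 3716 bp. The NANOG locus on chromosome 5 had 3628 and 2160 bp against 4553 and 2136 bp. Both of the latter overlapped between the stages. Of 29 trophectoderm genes, 13 were above 0 and 14 below. TEAD4, the transcription factor that starts the trophectoderm programme, rose from 505 and 1109 bp to 4347 and 3957 bp (limma adjusted p = 0.00183), and had 1065 and 1875 bp in morulae and 2040 and 3089 bp in blastocysts. CDX2, which acts later in that lineage, had 3560 and 1856 bp against 1663 and 2835 bp. Of 17 hypoblast and endoderm genes, 3 were above 0 and 13 below, but with −log10 q of 3 or more the split was 8 and 8. GATA6 had 8607 and 5029 bp against 6856 and 6902 bp. SPARC, a matrix protein gene, was the hypoblast gene called wider, from 188 and 0 bp to 2034 and 2694 bp, with the opposite sign at −log10 q of 3 or more. Within 1 kb of an end SPARC had 599 and 0 bp at 4 cells and 0 bp in both 8-cell libraries.

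Oocyte genes showed no common direction, with 13 of 26 above 0 and 10 below. NOBOX, an oocyte homeobox factor, rose from 393 and 0 bp to 2535 and 5112 bp (limma adjusted p = 0.0118) and that end had 0 bp in all 4 oocyte libraries, although both GV oocyte libraries had a peak within 1 kb of an end of the gene. BRDT, a testis bromodomain protein, rose from 4038 and 3051 bp to 7495 and 6954 bp. The call at NOBOX was lost without either 4-cell library and that at BRDT without any 1 library. NPM2, a maternal histone chaperone, lost the mark within 1 kb of an end, with 897 and 455 bp at 4 cells and 0 bp at 8 cells. GDF9 had 2451 and 984 bp within 5 kb against 1326 and 2179 bp, and ZP3 had 209 bp at most at the end used, with 668 bp within 1 kb of an end in 8-cell replicate 1.

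Most chromatin regulators were not called. Of 25 genes of H3K4 methylation enzymes, 15 were above 0 and 9 below and limma called none (4 higher and 0 lower at an unadjusted p of 0.05). KDM5B, whose product removes H3K4 methylation, had 4689 and 3121 bp at 4 cells and 6933 and 6984 bp at 8 cells (limma adjusted p = 0.352), so both 8-cell libraries were above but the test was not passed. Polycomb and H3K27 demethylase genes were even, with 15 above and 15 below. In that list AEBP2, a cofactor of Polycomb repressive complex 2, rose from 2127 and 1481 bp to 7990 and 5333 bp (limma adjusted p = 0.0285), a call that stood only without 8-cell replicate 2 among the 4 omissions. RNF2, the ubiquitin ligase of Polycomb repressive complex 1, lost the mark within 1 kb of an end, from 847 and 294 bp to 0 bp. Of 260 genes with ZNF symbols, 167 were above 0 and 91 below, and limma called 8 wider: ZNF10, ZNF37A, ZNF142, ZNF329, ZNF471, ZNF576, ZNF646 and ZNF662. At the end used ZNF329 rose from 0 bp in both 4-cell libraries to 3662 and 5330 bp, while the gene was marked at 4 cells too, with 1019 and 780 bp within 1 kb of an end. Each of these 8 calls was lost without 2 or more of the 4 libraries, 4-cell replicate 2 among them in all 8, and at ZNF10 and ZNF37A the sign turned under stricter peak thresholds.

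Limma called no gene in 4 further lists. Cell cycle genes had 20 above 0 and 13 below (2 higher and 0 lower at an unadjusted p of 0.05), and cell junction and polarity genes had 26 and 17 (5 and 0). DNA methylation genes had 12 above 0 and 5 below (2 and 0), and imprinted genes had 15 and 13 (4 and 1). Few members of the lists gained or lost the mark. Besides CTNND1 and STAR, the gained ones were SIX3, ZFP57, ZNF132, ZNF19, ZNF446, ZNF554 and ZNF658, and their coverage within 1 kb of an end at 8 cells was small, from 17 bp (ZNF554 in 8-cell replicate 2) to 723 bp (ZNF19 in 8-cell replicate 1). At SIX3, an eye and forebrain homeobox gene, the sequence within 1 kb of an end had 177 and 182 bp at 8 cells while its 5 kb window held 4222 and 4646 bp at 4 cells and 3800 and 3663 bp at 8 cells. Besides NPM2, RNF2 and ZNF469, the lost ones included AMOTL1, AQP3, AURKB, FGF14, LHCGR, PSMB11, SHANK2, WNT2B, ZNF331 and ZNF697. AQP3, a water channel, had 1455 and 701 bp at 4 cells and 0 bp at 8 cells, and AMOTL1, an angiomotin of cell junctions, 500 and 393 bp against 0 bp. PSMB11, the thymus proteasome subunit, had 962 and 1880 bp within 5 kb against 0 bp.

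Markers of cells that could accompany oocytes were checked beside these results. Of 12 cumulus and granulosa cell genes, 4 were above 0 and 5 below, and their summed coverage was 12.9 and 8.40 kb at 4 cells and 15.26 and 18.045 kb at 8 cells. The rise in the sum lay in CYP11A1 and STAR and was not shared across the list. The number at 0 bp was 3 and 5 of 12 at 4 cells and 6 and 5 of 12 at 8 cells. CYP11A1 and STAR, both of steroid hormone synthesis, were called wider, CYP11A1 from 735 and 0 bp to 5525 and 5657 bp (limma adjusted p = 2.06e-06) and STAR from 304 and 0 bp to 2294 and 2284 bp (limma adjusted p = 0.00796, lost without 4-cell replicate 2), while LHCGR, the luteinising hormone receptor, lost the mark. The end used of CYP11A1 had 0 bp in every oocyte, 1-cell and 2-cell library, and 1 GV oocyte library had a peak within 1 kb of an end of the gene. The 9 sperm genes summed to 8.41 and 4.73 kb at 4 cells and 4.96 and 10.1 kb at 8 cells, which overlap. The part of other cells in the results was not tested.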

How the data were processed

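H3K4me3 broad peaks were analysed in 4-cell and 8-cell pig embryos, with the other groups beside them. Bowtie2 2.4.1, MACS2 and susScr11 are listed in the submitters' processing notes, while settings, input control and read filters are not given in the sources used here. For each library the authors deposited 1 list of positions, each peak with its fold enrichment (a ratio to local background), −log10 p and −log10 q. No read counts were in the lists, so depth is unknown and no interval was computed.

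Positions were merged per library (Python 3.11.15) on chromosomes 1 to 18. Gene ends came from a RefSeq gene table of Sscrofa11.1, the same assembly as susScr11, without strand, so both ends were treated alike. A promoter sequence check was not run, and sequence was not analysed here. For limma 3.58.1 (trend, 8 stages), covered base pairs within 5 kb of the end with the larger mean were used, leaving out genes covered in under 2 of 16 libraries. Limma was run on simulated shifts and the region calls on simulated peaks, and the outcomes are not reported here. Covered, proximal and distal lengths and the distal and broad shares used exact permutation tests. Counts of genes and regions gained or lost, list summaries and shares at other stages had no test. Of 696 listed symbols, 638 matched. Named genes were the 12 gained and 12 lost with the largest gap between groups, the 10 largest limma differences each way, list members called or gained or lost, and fixed examples. Named regions were those with most sequence shared by both libraries. A few genes and a region that these rules select are not reported here. KDM5C lies on X and was left out, and no gene of the olfactory receptor list matched. Members and lists were chosen with earlier results of these data known. Alternatives were peak thresholds, joining, window widths, leaving out each library, log2 scale, no filter, 4 libraries alone and a replicate block. A common lowest −log10 q was added after seeing the data.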

Additional observations from a re-analysis of the deposited data

Results flagged for a closer look

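Chromosome X lay outside the comparison above and carried a signal of the same kind. Of 762 coding genes on X, 26 (3.41%) gained H3K4me3 between the 4-cell and 8-cell stages and 2 (0.262%) lost it, beside 1.29% and 1.27% of genes on chromosomes 1 to 18. A larger part of the X genes was open to gain, since 293 of 762 were unmarked in both 4-cell libraries, against 4384 of 18722. Among those unmarked genes, 26 of 293 on X and 241 of 4384 on chromosomes 1 to 18 gained the mark, a share still higher on X. Covered length on X was 0.954 and 0.607 Mb in the 4-cell libraries and 1.77 and 2.10 Mb in the 8-cell libraries. Of 3761 joined regions on X, 584 (15.5%) were gained and 22 (0.585%) lost. The gained genes included BMP15, an oocyte growth factor, EFNB1, an ephrin ligand, GJB1, a gap junction connexin, and KLF8, named after their values were seen. Of the 26, 4 were marked in both 2-cell libraries, 25 in both morula libraries and 25 in both blastocyst libraries. The X counts are for the lists as deposited and were not repeated at the common lowest −log10 q. On chromosomes 1 to 18 that limit turned the gene counts to 120 gained and 436 lost. The difference between X and the other chromosomes was not tested.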

How the results depend on the processing

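The distal share kept its sign in every alternative except the strongest 25 Mb of each list (-3.43 points, which rests on 4-cell replicate 2), and leaving out each library gave 13.9 to 21.3 points. Genes gained were 423 with −log10 q of 3 or more, 114 with fold enrichment of 3.5 or more, 120 with the common lowest −log10 q and 618 with 50% of a window covered. Genes lost were 495 by fold enrichment, 657 in the strongest 25 Mb, 364 with 50% of a window covered and 436 with the common lowest −log10 q. Regions gained were 1191 by −log10 q, 2842 by fold enrichment, 830 in the strongest 25 Mb, 22221 base by base and 6086 at the common limit, and regions lost were 878 by −log10 q and 6308 base by base. Leaving out each library gave 334 to 915 genes gained, 334 to 736 genes lost, 16285 to 46229 regions gained and 3815 to 24484 regions lost, since a group of 1 needs a single peak.

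Limma called 548 wider and 189 narrower genes with −log10 q of 3 or more, 170 and 31 by fold enrichment, 92 and 41 in the strongest 25 Mb, 96 and 4 at the common limit, and 231 and 34 on the log2 scale. Leaving out each library gave 77 to 305 wider and 0 to 13 narrower genes, the lone library being assumed to vary like the others. With the 4 libraries alone limma called 0 and 0 (1866 and 552 at an unadjusted p of 0.05). With a replicate block the counts were 272 and 6. The replicate numbers share no stated source, and deviations of same-numbered libraries correlated at -0.0756 over genes.

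Of 56 named genes called by limma, 755 of 763 repeats under 14 alternatives kept the direction or were at 0, and 374 of them lost the call. The end used was chosen anew under each peak threshold. Signs turned in the strongest 25 Mb at ANXA9 (-463 bp), PRAME (-409 bp), HTR3B (-255.5 bp), ZNF10 (-38.5 bp, and -167 bp at the common limit) and ZNF37A (-288 bp, likewise with −log10 q of 3 or more), and at SPARC with −log10 q of 3 or more (-299.5 bp). Among genes not called, leaving out each library gave -101 to 1122 bp at SOX2, -758 to 1659 bp at NANOG (-300.5 bp by fold enrichment), -1311 to 393 bp at CDX2 (74 bp with −log10 q of 3 or more), -1728 to 1850 bp at GATA6 and -698.5 to 768.5 bp at GDF9. The causes were not tested. Depth is unknown, so weak peaks missing from a list cannot be told from absent marks.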

Other observations

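Gained regions were unevenly spread over chromosomes. On chromosome 13 they were 14.7% of the joined regions and on chromosome 1 they were 14.1%, against 6.49% on chromosome 12 and 7.54% on chromosome 18. Chromosome 13 held 1479 gained and 118 lost regions, and chromosome 12 held 388 and 211. On chromosome 12 the coding genes gaining and losing the mark were 9 and 18, and on chromosome 13 they were 19 and 8. These are values with no test.

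Agreement between libraries was low away from genes. The Jaccard index, shared over joint covered length, was 0.187 for the distal sequence of the 2 libraries at 4 cells and 0.271 for the 2 at 8 cells, and 0.488 for the proximal sequence of the 2 at 4 cells. The list of neuron and synapse genes had 16 of 36 above 0 and 20 below, with a median difference of -160.5 bp that was 71 bp without 4-cell replicate 1.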
